A study of Rattus norvegicus with 12 samples.

Results

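Cytosolic ribosomal proteins build the ribosomes that translate nuclear mRNAs, and their genes are measured here through a whole time course of SIN-1 exposure. Members were the genes whose array probe carried a single symbol starting with Rpl or Rps and a protein number, or Rplp0, Rplp2 and Rpsa. S6 kinases, pseudogene symbols ending in -ps and numbered copies such as Rpl10l1 were left out. The rule found 58 symbols of the 18166 named genes on the arrays. The match Rps19bp1 encodes an Rps19-binding protein and not a ribosomal protein, so it is described by itself and the counts below cover the other 57 genes. Of these, 36 belong to the large subunit, 2 (Rplp0 and Rplp2) to its acidic stalk and 19 to the small subunit. A letter-for-letter reading of the exclusion, which would also drop names such as Rpl3, leaves 30 symbols.

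The samples are wild-type primary rat cardiomyocytes grown in serum-containing medium. They form 4 groups of 3 arrays: an untreated control and cells exposed for 70 min, 4 h or 8 h to SIN-1 (3-morpholinosydnoimine), which the labels name a peroxynitrite donor. Peroxynitrite is an oxidant formed from nitric oxide and superoxide. The labels used here give no SIN-1 dose, no culture time for the control and no vehicle, and each treated time is set against the same control arrays. Nothing says whether the replicates were separate cultures, so p-values measure only the spread between these arrays, which may be technical.

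Each cytosolic ribosome has a small subunit, which reads the mRNA, and a large subunit, which joins amino acids and carries the stalk that recruits elongation factors. Ribosomal protein mRNAs are abundant and long-lived in most cells, and are known for starting with a run of pyrimidines, the TOP motif. Through the protein Larp1 and the kinase mTOR, this motif lets cells change the translation of these mRNAs without a change in their amount. An array measures the amount only.

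The sequence around the transcription start is where a TOP motif would lie, and windows of members on which the results below turn are printed here. RefSeq promoter entries of assembly GRCr8 matched 49 of the 57 genes; Rpl7, Rpl8, Rpl15, Rpl23a, Rpl27, Rpl30, Rps20 and Rps29 had none. Each window runs from 30 bases before to 20 bases after the annotated start, on the transcript strand, so that base 31 is the start. Capitals mark the pyrimidine words CTTTCC or CTCTTT where a window holds either of them.

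Rpl10: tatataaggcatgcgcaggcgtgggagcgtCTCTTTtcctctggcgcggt
Rpl13a: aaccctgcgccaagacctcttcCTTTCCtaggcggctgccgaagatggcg
Rpl27a: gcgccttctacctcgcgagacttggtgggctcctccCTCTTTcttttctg
Rpsa: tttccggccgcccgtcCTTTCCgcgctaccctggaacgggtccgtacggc
Rpl3: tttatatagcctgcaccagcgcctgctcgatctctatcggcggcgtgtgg
Rpl41: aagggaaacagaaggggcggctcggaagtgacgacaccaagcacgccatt
Rps3a: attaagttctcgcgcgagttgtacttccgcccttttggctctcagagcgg
Rplp0: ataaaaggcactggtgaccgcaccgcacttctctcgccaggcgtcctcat

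In the Rpl10 window (chrX:157205820-157205869, + strand) the word CTCTTT begins at base 31, the annotated start itself. In the windows of Rpl27a (chr1:172974543-172974592, + strand), Rpl13a (chr1:104748894-104748943, - strand) and Rpsa (chr8:128728849-128728898, + strand) the marked word begins at base 37, 23 and 17. The windows of Rpl3 (chr7:113507971-113508020, - strand), Rpl41 (chr7:1563478-1563527, - strand), Rps3a (chr2:173827023-173827072, - strand) and Rplp0 (chr12:46718371-46718420, - strand) hold neither word at these letters. CTTTCC or CTCTTT was found on the transcript strand of this window in 22 of the 49 matched members (44.9%), against 3.99% of all 33469 RefSeq promoters. Over the whole 300 bases and both strands, CTTTCC was in 49.0% of members against 26.4% of promoters, and CTCTTT in 46.9% against 23.5%. CCGGAAG, the core letters bound by ETS factors, was in 26.5% against 8.75%, and the TATA letters TATAAA in 12.2% against 14.2%. Pyrimidines made up a median of 60% of the 50 bases in members and 50% in all promoters. A match describes letters only, and the words can overlap one another. The starts are annotated, not measured here.

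The cell type was checked against marker genes. Signals of different probes are not on a common scale, so shares of cell types cannot be read from them. Of 12 listed cardiomyocyte markers 11 were measured, with mean signals over the arrays (log2) of 3.57 for Myh7, 3.78 for Myh6, 4.33 for Actn2, 5.57 for Tnni3, 5.84 for Tnnt2 and at most 7.94, for phospholamban (Pln). The median of unlisted probes was 4.33 and that of all named genes 5.75. The matrix genes Fn1 and Col1a1 averaged 12.86 and 12.77, and the smooth muscle gene Tagln 12.46. The contractile genes that define cardiomyocytes therefore gave low signals here, and the labelled cell type is kept as a label. Taken over all probes, 3 arrays had the highest medians: 70 min replicate 3 with 5.12, 70 min replicate 2 with 5.11 and 4 h replicate 3 with 5.09. The remaining arrays had medians of 4.98 to 5.05.

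Probes of ribosomal protein genes gave strong and repeatable signals. In 43 of the 57 genes the mean signal was at least 9 on the log2 scale, and 8 genes were under 5.75. The highest mean signals were 12.82 for Rps29, 12.54 for Rpsa and 12.49 for Rpl34, and the lowest were 3.72 for Rps9, 4.03 for Rps4y2 and 4.48 for Rpl3l. Low signals of genes that every ribosome needs, Rps9 (a small subunit protein) among them, describe the probe and not the amount of mRNA. Fold changes of the members were measured with a median SE (log2) of 0.060, against 0.131 for all genes. For 18 members with several probes the brightest was used, and all probes of the gene had the same sign in 13, 12 and 14 of them at 70 min, 4 h and 8 h against control.

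The spread over the 12 arrays differed widely between members. In the 43 bright genes the gap between the highest and the lowest of the 12 values had a median of 0.27, and in the 14 dimmer genes 0.69. The flattest were Rpl21, between 12.32 and 12.41 in all 12 arrays, and Rps29, between 12.77 and 12.87. Rpl17, Rpl9, Rpl34, Rpl36 and Rpl4, all large subunit proteins, had gaps of 0.13 to 0.16. The gap was at most 0.25 in 15 members and over 0.5 in 15, of which 3 were bright: Rpl6, Rpl10 and Rps3a. The widest gap was in Rps9, between 3.13 and 4.32, whose probe was the dimmest.

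After 70 min of SIN-1 the ribosomal protein genes were almost flat. Of the 57, 0 were called higher and 1, Rpl3, was called lower (limma with Benjamini-Hochberg adjustment over all genes, adjusted p under 0.05), against a background of 6.76% of all genes called higher and 7.81% called lower. At an unadjusted p under 0.05, 2 members were higher and 9 lower (background 14.2% and 13.6%). The median log2 fold change of the members was -0.07, with quartiles of -0.10 and -0.01, and that of all genes was 0.03, a sign that turned with centring (-0.022) and with brighter genes only (-0.023). The members' median was -0.028 without 70 min replicate 3. Fold changes were negative in 44 of the 57 members and positive in 13, while 55.2% of all genes were positive. The 95% interval lay within 1.5-fold of control in both directions for 51 members. The large subunit (36 genes) had a median of -0.07 and the small subunit (19 genes) also -0.07. In the 43 members with a signal of at least 9 the median was -0.074 and 37 were negative. In the 14 dimmer ones it was 0.002 and 7 were negative, with a median SE of 0.138 against 0.054.

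**Figure D1:**
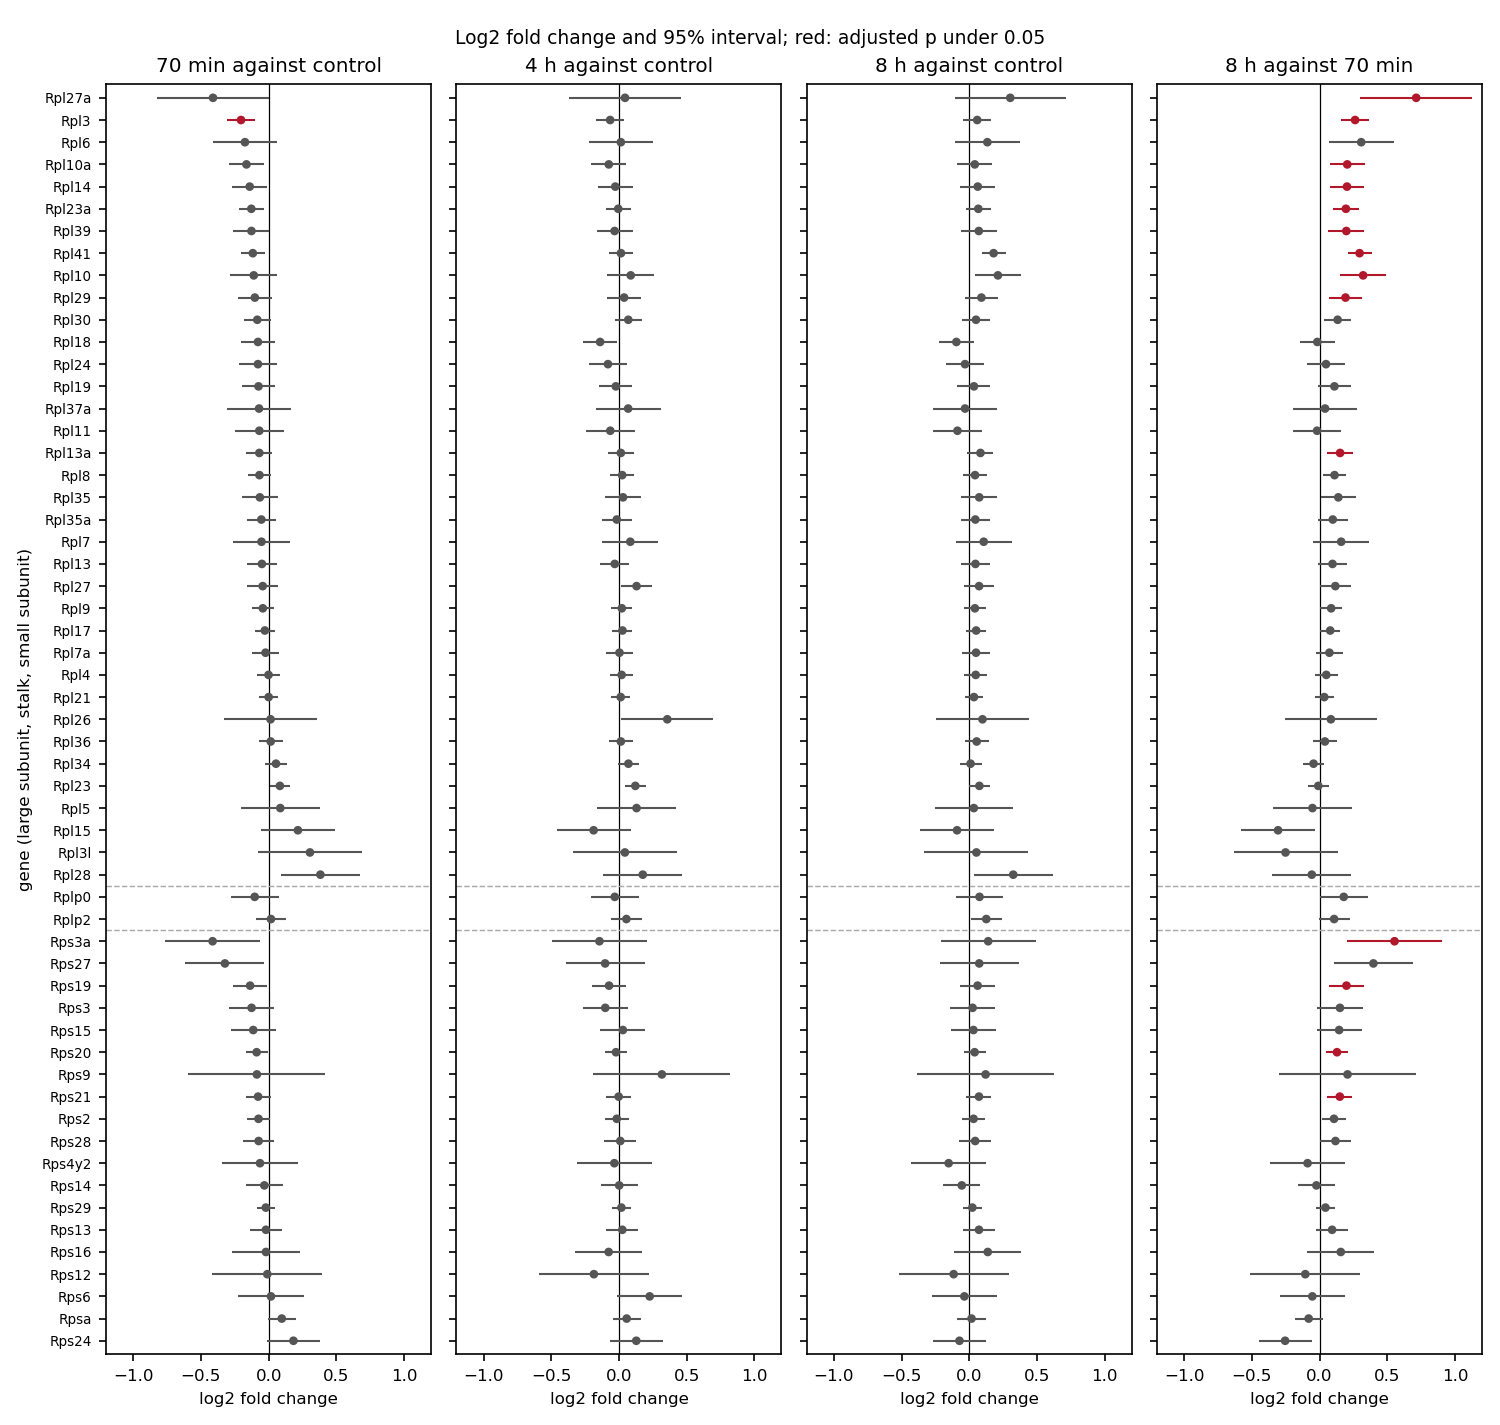
Log2 fold change (x axis) of each of the 57 genes (y axis, large subunit at the top, then stalk, then small subunit) with its 95% interval, in 4 comparisons. Red points passed an adjusted p of 0.05: 1 at 70 min, 0 at 4 h, 0 at 8 h against control and 14 at 8 h against 70 min.

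Rpl3 encodes a core large subunit protein near the site where peptide bonds form. Its signal was 11.50, 11.46 and 11.47 in control arrays, 11.33, 11.31 and 11.17 at 70 min, 11.48, 11.40 and 11.35 at 4 h, and 11.49, 11.58 and 11.53 at 8 h. All 3 values at 70 min lay below every control value, and the 4 h and 8 h values overlapped the controls. At 70 min the log2 fold change was -0.20 ± 0.05 (SE, n = 3 arrays a group; limma adjusted p = 0.00819), a level 0.868 times that of control. At 4 h it was -0.07 and at 8 h 0.06, neither called (limma adjusted p = 0.595 and 0.955). The call at 70 min was lost without 70 min replicate 3 (-0.16, adjusted p = 0.0509), without the 3 arrays of highest median (-0.14, adjusted p = 0.22) and without a trend in the prior variance (adjusted p = 0.114).

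In 9 members all 70 min values lay below every control value (background 15%): Rpl3, Rpl8, Rpl10a, Rpl14, Rpl19, Rpl23a, Rps19, Rps20 and Rps21. Rpl23a, which helps dock the signal recognition particle, had 11.22, 11.11 and 11.16 at 70 min, against 11.33, 11.27 and 11.28 in control arrays, a fold change of -0.13 ± 0.04 (SE, limma adjusted p = 0.0629). Rpl10a, a large subunit protein, had 11.42, 11.39 and 11.23 at 70 min, against 11.47, 11.59 and 11.47 in control arrays, a fold change of -0.16 ± 0.06 (SE, adjusted p = 0.0866). Of the 9 only Rpl3 was called. Rps3a and Rps27, chosen after their values were seen, were low in some arrays of a group and not in others. Rps3a, a small subunit protein, had 9.58 and 9.84 in 70 min replicates 3 and 2 but 10.29 in replicate 1, against 10.44, 10.30 and 10.21 in control arrays. Its 70 min values overlapped the controls, and its value in 4 h replicate 3 was again low, at 9.73, where the other 4 h arrays had 10.28 and 10.51. The fold change at 70 min was -0.41 ± 0.17 (SE, limma adjusted p = 0.112). Rps27, another small subunit protein, had 7.62, 7.19 and 7.14 at 70 min, against 7.69, 7.62 and 7.61 in control arrays, and 7.17 in 4 h replicate 3. It showed the same arrays low, with a fold change of -0.32 ± 0.14 (SE, adjusted p = 0.136).

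The arrays in which Rps3a and Rps27 were low, 70 min replicates 2 and 3 and 4 h replicate 3, are the 3 with the highest median over all probes. In 8 of the 57 members (Rpl6, Rpl10a, Rpl27a, Rpl39, Rps2, Rps3, Rps3a and Rps27) they held the 3 lowest of the 12 values, and in 0 members the 3 highest. The single array 70 min replicate 3 held the lowest of the 12 values in 30 of the 57 members. These counts were not made over all genes, so whether they are particular to the members was not tested. By array, the median shift of the members from their control means was -0.003, -0.055 and -0.137 in 70 min replicates 1, 2 and 3, and 0.050, -0.004 and -0.011 at 4 h. At 8 h it was 0.084, 0.062 and 0.020, and the control arrays lay between -0.016 and 0.015. Without the 3 arrays of highest median, which leaves 1 array at 70 min that is taken to vary like the other groups, the members' median at 70 min was -0.003. The members' median was -0.023 when the fit included each array's median, and -0.122 with arrays centred on their median.

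**Figure D2:**
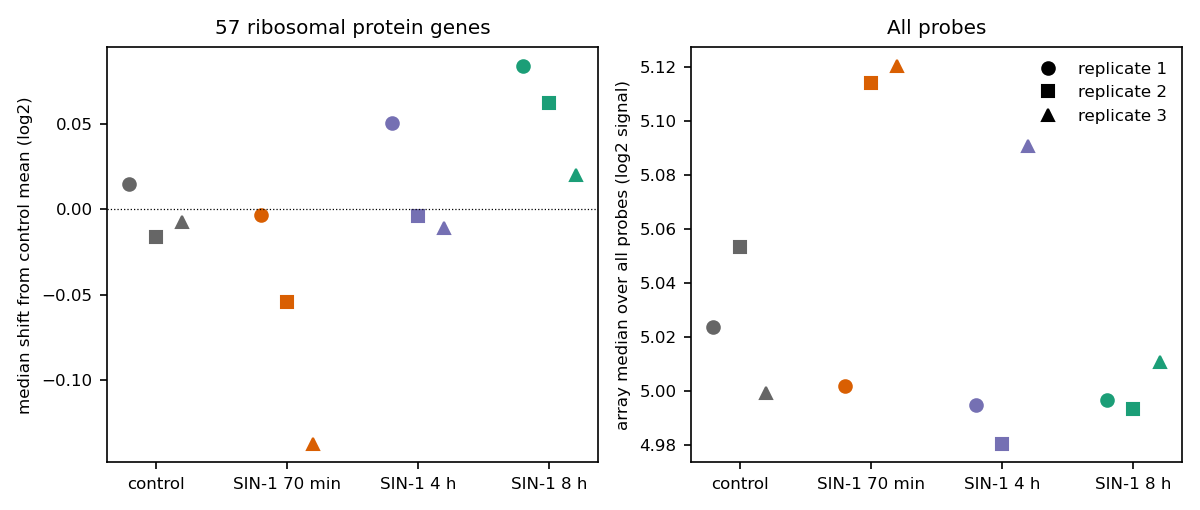
Left: median over the 57 ribosomal protein genes of the difference from the control mean (y axis, log2) in each of the 12 arrays, by group (x axis). Right: the median log2 signal over all probes of the same arrays. The array at the bottom left, 70 min replicate 3 (-0.137), has the highest array median (5.12).

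**Figure D3:**
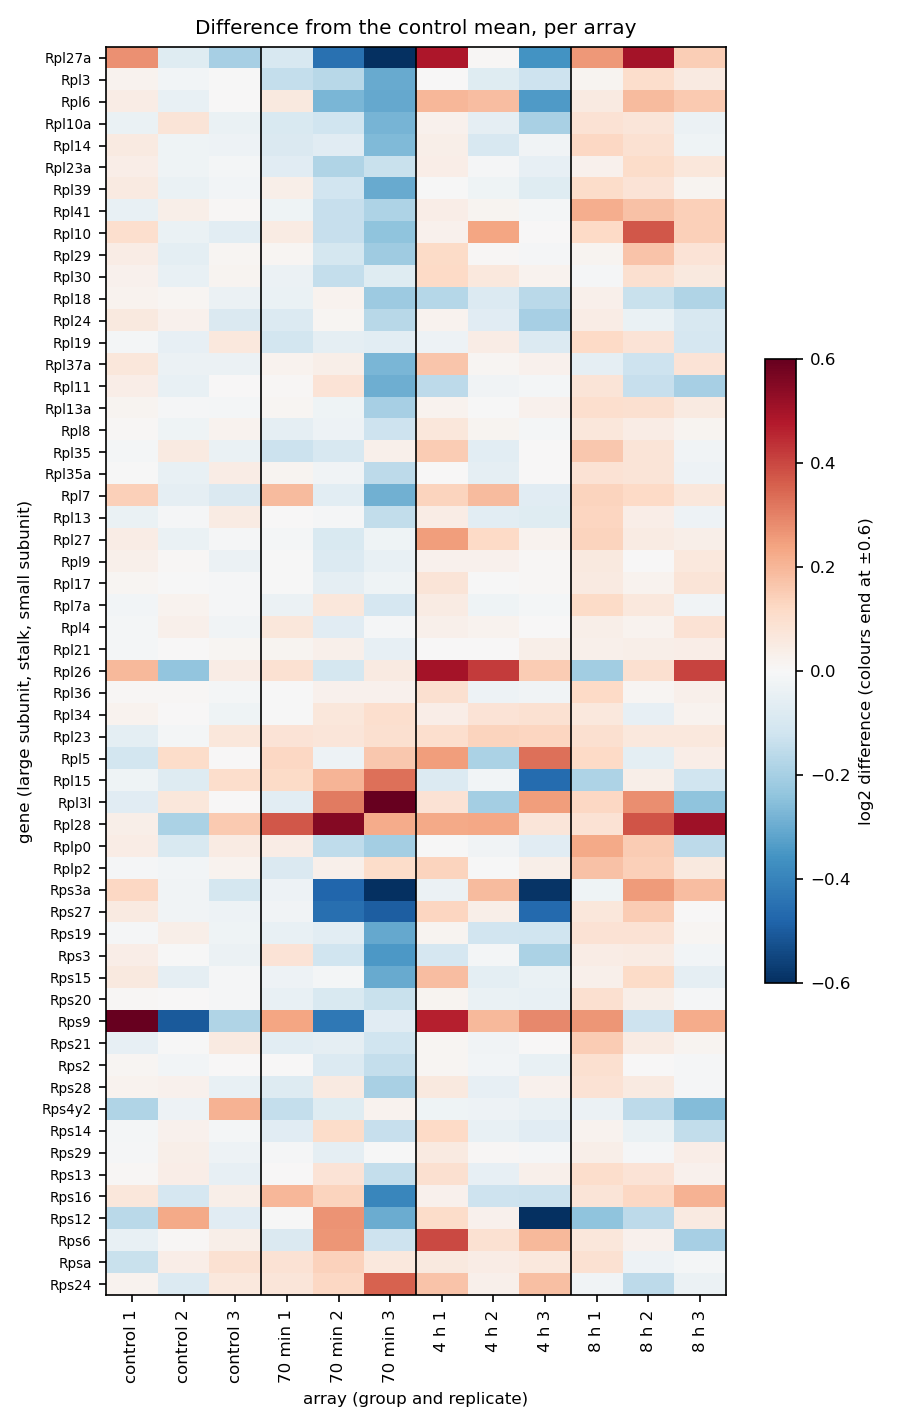
Difference of each gene (rows, in the order of the interval plot) from its control mean in each of the 12 arrays (columns), as a log2 difference. Blue is most common in 70 min replicate 3, where 30 of the 57 genes had their lowest value, and red in 8 h replicate 1, where 19 had their highest.

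At the same time the fibroblast and matrix markers were lower in their sum. Their 10 genes, all measured, summed to 90.2 to 91.4 (log2) in 70 min arrays, against 93.6 to 93.8 in control arrays. Of the 10, 3 were called lower and 0 higher (background 7.81% and 6.76%). They were lumican (Lum), decorin (Dcn) and Col3a1, with log2 fold changes of -1.42, -1.05 and -0.41. In 3 of the 10 the fold change was positive: Col1a1 with 0.01, Fn1 with 0.07 and Tcf21 with 0.24 (limma adjusted p = 0.889, 0.154 and 0.282). The cardiomyocyte list summed to 53.4 to 56.4 at 70 min and to 53.4 to 55.3 in control arrays. The smooth muscle (39.3 to 39.8 against 39.0 to 39.8), endothelial (23.6 to 24.8 against 24.1 to 24.3) and macrophage (30.8 to 31.4 against 30.7 to 31.3) lists overlapped the controls in their sums. Within them the endothelial receptor gene Tek fell by 0.88 (adjusted p = 0.00013), whereas Egfl7 rose by 0.43 (adjusted p = 0.0286) and Tagln by 0.13 (adjusted p = 0.0313). In such bulk RNA fewer cells of a type and less RNA per cell cannot be told apart, and the part of cell types in the ribosomal protein values was not tested.

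The members with the smallest unadjusted p among positive fold changes at 70 min were Rpl28, Rpl23 and Rps24, and none of them was called. Rpl28, a large subunit protein, had 5.60, 5.78 and 5.45 at 70 min, against 5.26, 5.04 and 5.38 in control arrays. The groups did not overlap, as in 4 members on the high side (background 16.8%). Its fold change was 0.38 ± 0.14 (SE, limma adjusted p = 0.0772) and was 0.18 and 0.33 at 4 h and 8 h. Rpl23, a large subunit protein that can bind Mdm2, the ubiquitin ligase of p53, was bright and had 12.37, 12.36 and 12.38 at 70 min, against 12.23, 12.28 and 12.36 in control arrays. Its fold changes of 0.08, 0.12 and 0.08 at 70 min, 4 h and 8 h did not pass (limma adjusted p = 0.14, 0.0765 and 0.91). Rps24, a small subunit protein, was 0.18 ± 0.09 (SE) at 70 min (adjusted p = 0.214).

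At 4 h no member passed. Of the 57, 0 were called higher and 0 lower by limma, against 2.08% and 1.77% of all genes, and at an unadjusted p under 0.05 there were 3 higher and 1 lower (background 8.76% and 6.36%). The median was 0.01 for the members and 0.01 for all genes, 34 members were positive, and 54 intervals lay within 1.5-fold. The members with the smallest unadjusted p were Rpl23 (0.12 ± 0.04, SE), Rpl27 (0.13 ± 0.05) and Rpl26 (0.36 ± 0.16) on the high side and Rpl18 (-0.14 ± 0.06) on the low side, all large subunit proteins. In Rpl18 the 4 h values of 11.51, 11.60 and 11.52 lay below the control values of 11.70, 11.70 and 11.65, the only member of which this was true at 4 h (background 8.71%). In 3 members, Rpl23, Rpl34 and Rps6, all 4 h values lay above all control values (background 11.6%).

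At 8 h the values stood slightly above control without any call. By limma 0 members were called higher and 0 lower, where 0.022% and 0.0055% of all genes were called, and at an unadjusted p under 0.05 there were 4 higher and 0 lower (background 2.97% and 2.49%). The median was 0.05 (quartiles 0.03 and 0.08), against 0.01 for all genes, and 47 of the 57 members were positive, against 54.5% of all genes. It was 0.031 without 8 h replicate 1 and 0.076 with centring, where the median of all genes was 0.039. In 9 members all 8 h values lay above all control values (background 7.98%) and in 0 members below them (background 5.24%). In the 43 members with a signal of at least 9 the median was again 0.05, and in the 14 dimmer ones 0.04. The intervals of 54 members lay within 1.5-fold of control. The lists of mitochondrial ribosomal proteins and translation factors, described below, had similar medians at 8 h. These were 0.063 with 57 of 72 genes positive and 0.052 with 35 of 44 positive.

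Rpl41 encodes the smallest ribosomal protein, a very basic peptide at the interface of the subunits. Its signal was 12.23, 12.31 and 12.28 in control arrays, 12.25, 12.14 and 12.09 at 70 min, 12.31, 12.29 and 12.26 at 4 h, and 12.49, 12.45 and 12.42 at 8 h. The 8 h values lay above all 9 others, whereas the 70 min values overlapped the controls. Against control the fold change was -0.12 ± 0.04 at 70 min and 0.18 ± 0.04 at 8 h (SE, limma adjusted p = 0.0726 and 0.269). Rpl41 was the only member called between 4 h and 8 h, higher at 8 h by 0.16 ± 0.04 (SE, adjusted p = 0.0374), with 1.97% of all genes called higher and 1.54% lower. At an unadjusted p under 0.05, 3 members were higher at 8 h than at 4 h and 2 lower (background 7.4% and 7.05%), and the groups did not overlap in 6 higher and 3 lower members (background 9.68% and 9.02%). A further probe of Rpl41 gave 0.00, 0.19 and 0.14 at 70 min, 4 h and 8 h against control, and with the mean of both probes the later difference was 0.06 (adjusted p = 0.646). Over the alternatives of the 8 h against 4 h difference the adjusted p ran from 0.018 to 0.646.

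Rpl10, a large subunit protein that joins late in assembly, had 10.99, 10.81 and 10.70 at 70 min and 11.07, 11.32 and 11.09 at 8 h, against 11.05, 10.90 and 10.88 in control arrays. All 8 h values lay above all control values, by a small margin over control replicate 1. Its fold change at 8 h was 0.21 ± 0.08 (SE, limma adjusted p = 0.906). A dimmer probe of Rpl10 went the other way, with -0.30, -0.45 and -0.45 at 70 min, 4 h and 8 h, so the probes of this gene disagree.

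**Figure D4:**
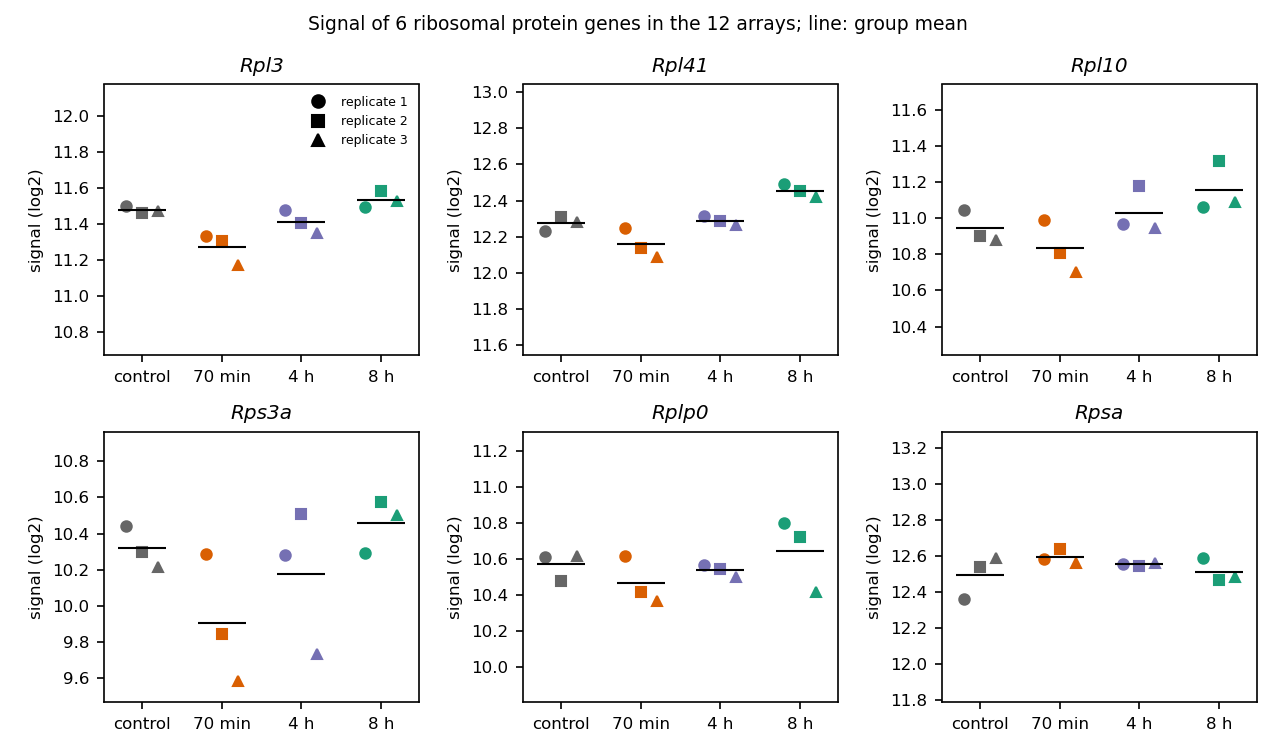
Log2 signal (y axis) of 6 ribosomal protein genes in each array, by group (x axis), with the group mean as a line; every panel spans the same range. Rpl3 is lowest at 70 min, Rpl41 is highest at 8 h, Rps3a is low in 70 min replicates 2 and 3 and 4 h replicate 3, and Rplp0 and Rpsa overlap between all groups.

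The comparison that separated the members most was 8 h against 70 min, which was added after the data had been seen. Its fold changes do not use the control arrays. The estimate of the spread does, so the calls are not independent of the controls. Of the 57 members 14 were higher at 8 h and 0 lower by limma, against 9.56% and 6.43% of all genes, and at an unadjusted p under 0.05 there were 25 higher and 2 lower (background 15% and 13.1%). The median of the members was 0.11 and 43 were positive. That of all genes was -0.03, but 0.047 with centring, 0.045 with brighter genes only and 0.006 when the fit included each array's median. In the 43 members with a signal of at least 9 the median was 0.117 and 13 were called higher (background 9.56%). In the dimmer members the median was -0.052 and 1 was called higher. The 14 called were the large subunit genes Rpl3, Rpl10, Rpl10a, Rpl13a, Rpl14, Rpl23a, Rpl27a, Rpl29, Rpl39 and Rpl41 and the small subunit genes Rps3a, Rps19, Rps20 and Rps21. Each of the 14 had a negative fold change at 70 min and a positive one at 8 h against control, as did 37 of all 57.

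The differences were small, from 1.09-fold for Rps20 to 1.64-fold for Rpl27a. Rpl41 stood at 0.30 ± 0.04 (SE, adjusted p = 9.46e-05), Rpl3 at 0.26 ± 0.05 (adjusted p = 0.00104) and Rpl23a at 0.20 ± 0.04 (adjusted p = 0.00522). Rpl27a, a large subunit protein with a dim probe, had 6.11, 6.34 and 5.995 at 8 h, against 5.75, 5.40 and 5.16 at 70 min. Values at 8 h lay above all 70 min values in 13 of the 14 genes, Rpl39 being the exception. As the 14 were chosen by this same comparison, neither this nor their signs given above are further support. Of all 57 members 19 lay above (background 15.7%), and 2, Rpl15 and Rps24, lay below (background 15.3%). The count of 14 fell to 3 without 70 min replicate 3, to 3 without 8 h replicate 2, to 8 without 8 h replicate 1, to 2 with the array median as a covariate and to 1, Rpl41, without the 3 arrays of highest median.

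Cell type markers differed in the same comparison. Lum, Dcn and Col3a1 were higher at 8 h than at 70 min by 1.57, 1.21 and 0.43 on the log2 scale, and Tek by 0.81 (limma adjusted p = 1.73e-08, 0.000109, 8.39e-07 and 0.000239). Myh6, a cardiomyocyte myosin, and Des, the muscle filament protein desmin, were lower by log2 differences of -0.91 and -0.58 (adjusted p = 0.00271 and 0.00919). Myh6 was the only 1 of the 11 cardiomyocyte markers called (background 9.56% higher and 6.43% lower), and 2 of the 11 were positive. Its mean signal of 3.78 lay under the median of unlisted probes, 4.33. Des is from the smooth muscle list, where it was the only 1 of 5 called. The fibroblast and matrix list summed to 93.4 to 94.6 at 8 h, against 90.2 to 91.4 at 70 min, and the cardiomyocyte list to 52.4 to 54.4 at 8 h, against 53.4 to 56.4 at 70 min. The part of these markers in the ribosomal protein values was not tested.

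Between 70 min and 4 h, 0 members were called in either direction by limma, where 4.48% of all genes were higher at 4 h and 3.15% lower, and at an unadjusted p under 0.05 there were 10 higher and 1 lower (background 11.3% and 8.76%). In 11 members all 4 h values lay above all 70 min values (background 11%) and in 1, Rpl15, below them (background 9.94%).

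Members with and without the pyrimidine words near the start had medians close to each other. These words do not define a TOP motif, so the split does not test that motif. The printed windows of Rpl3, Rps3a and Rplp0 hold neither word but run in C and T from the annotated start. In Rpl13a and Rpsa the marked word ends before the annotated start. At 8 h against 70 min the median was 0.10 in the 22 members with CTTTCC or CTCTTT and 0.11 in the 27 without. Of these, 4 and 8 were called higher (background 9.56%). At 70 min against control the medians were -0.05 and -0.08. Rpl10, whose printed window holds CTCTTT at the annotated start, and Rpl41, whose window holds neither word, were both among the 14.

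The genes that define special parts of the ribosome did not pass in any comparison with control. Rplp0, the scaffold of the stalk and a common reference gene in PCR, had 10.61, 10.48 and 10.62 in control arrays, 10.62, 10.42 and 10.37 at 70 min, 10.57, 10.55 and 10.50 at 4 h, and 10.80, 10.72 and 10.42 at 8 h. The groups overlapped throughout, with fold changes of -0.10, -0.03 and 0.08 (SE 0.083). Its partner Rplp2 stood at 0.02, 0.06 and 0.13, and its 8 h values of 11.22, 11.18 and 11.10 lay above all control values of 11.04, 11.02 and 11.06 (limma adjusted p = 0.906). Rpsa, a small subunit protein also known as a laminin receptor, had 0.10, 0.06 and 0.02.

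Rpl5 and Rpl11, which with a small ribosomal RNA can bind Mdm2 and so link ribosome assembly to p53, stood at 0.09 and -0.07 at 70 min and 0.03 and -0.09 at 8 h. Rps6, the small subunit protein that S6 kinases phosphorylate, had 7.46, 7.15 and 7.26 at 4 h, against 7.02, 7.07 and 7.10 in control arrays. The groups did not overlap, with a fold change of 0.23 ± 0.11 (SE, limma adjusted p = 0.369). At 70 min and 8 h it stood at 0.02 and -0.04.

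Rpl3l is a relative of Rpl3 known from human and mouse for its restriction to heart and skeletal muscle. Its probe was dim, with 4.31, 4.45 and 4.38 in control arrays, 4.32, 4.69 and 5.04 at 70 min, 4.46, 4.17 and 4.63 at 4 h, and 4.50, 4.66 and 4.14 at 8 h. The groups overlapped, and the fold change at 70 min was 0.31 ± 0.18 (SE, adjusted p = 0.3), next to -0.20 for Rpl3. Rps4y2, a relative of Rps4 in name, was also dim and stood at -0.06, -0.03 and -0.15. Rps19bp1 had 5.75, 5.60 and 5.73 at 8 h, against 6.14, 5.93 and 5.75 in control arrays, a fold change of -0.24 ± 0.13 (SE, adjusted p = 0.937).

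Fau and Rack1, which encode ribosomal proteins or a ribosome-bound protein under other symbols, were not called either. Fau stood at 0.29 ± 0.11 (SE) and Rack1 at -0.03 ± 0.04 at 70 min (limma adjusted p = 0.0869 and 0.722). Mitochondrial ribosomal proteins, which serve a separate ribosome, had 1 of 72 called higher and 3 lower at 70 min and 0 in either direction at 4 h and 8 h (background 6.76% higher and 7.81% lower at 70 min, 2.08% and 1.77% at 4 h). Mrps31, Mrps33 and Mrpl13 fell by 0.49, 0.47 and 0.38, and Mrpl17 rose by 0.19. At an unadjusted p under 0.05, 2 of the 72 were higher and 2 lower at 4 h (background 8.76% and 6.36%). At 8 h 1 was higher and 0 lower at this threshold (background 2.97% and 2.49%). At 8 h against 70 min their median was 0.108, as in the cytosolic members. By limma 4 of the 72 were called higher and 1 lower (background 9.56% and 6.43%).

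Translation factors, the proteins that drive ribosomes, moved in larger numbers. Of 52 listed 44 were measured, and 13 rose and 3 fell at 70 min, next to 0 and 1 of the 57 ribosomal protein genes and the background given above. Eif3b and Eif3d, scaffold and cap-binding subunits of initiation factor eIF3, rose by 0.54 ± 0.07 and 0.44 ± 0.08 (SE), and Eif4e, the cap-binding protein, by 0.52 ± 0.09. Eif2s1, the alpha subunit of eIF2 that stress kinases phosphorylate, rose by 0.46 ± 0.09, the release factor Etf1 by 0.46 ± 0.08 and the helicase Eif4a1 by 0.39 ± 0.05. Among those lower, Eif5b, which joins the subunits, fell by 0.67 ± 0.20, Eif2b2 by 0.34 ± 0.08 and Eif4b by 0.21 ± 0.06 (adjusted p = 0.0301, 0.0102 and 0.0388). Of these 3 lower factors 1 stayed called without control replicate 1, control replicate 2 or 70 min replicate 2, and 0 without 70 min replicate 3.

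The elongation factors Eef1a1 and Eef2, whose mRNAs also carry TOP motifs, stood at -0.04 ± 0.03 and -0.02 ± 0.04 (SE) at 70 min (adjusted p = 0.489 and 0.84). At 4 h 5 translation factors were called higher (Eef1d, Eif1ax, Eif3b, Eif3c and Eif4a1) and 0 lower (background 2.08% and 1.77%). That count was 2 without control replicate 1 or 2, 3 without 4 h replicate 1 or 2 and 8 without 8 h replicate 1. At 8 h 0 were called in either direction by limma, with 5 higher and 2 lower at an unadjusted p under 0.05 (background 2.97% and 2.49%). The difference between this list and the ribosomal protein genes was not tested.

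**Figure D5:**
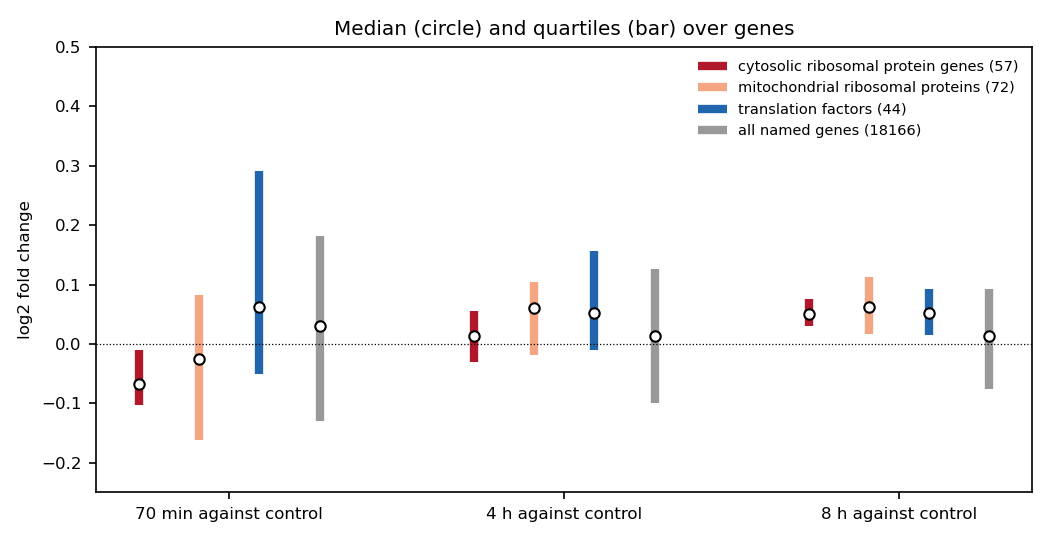
Median (circle) and quartiles (bar) of the log2 fold change (y axis) over the genes of 4 sets in each comparison with control (x axis). At 70 min the ribosomal protein genes have a median of -0.07 in a narrow range, and the translation factors one of 0.06 with an upper quartile of 0.29.

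Genes that control the translation of TOP mRNAs were read from a list of 20, of which 16 were measured. Larp1, which binds the TOP motif, rose by 0.49 ± 0.07 (SE, limma adjusted p = 0.00015) at 70 min. Sesn3 and Deptor, both inhibitors of mTOR signalling, fell by 1.49 ± 0.06 and 0.56 ± 0.07, and Tsc1, a further inhibitor, by 0.33 ± 0.11 (adjusted p = 5.14e-10, 1.68e-05 and 0.0458). Mtor stood at 0.04 and the S6 kinase gene Rps6kb1 at -0.08, neither called. At 4 h 1 of the 16 was called, Deptor, which fell by 0.35 ± 0.07 (adjusted p = 0.00502), where the background was 2.08% higher and 1.77% lower. At 8 h 0 were called. Counts by direction were thus 1 higher and 3 lower of 16 at 70 min (background 6.76% and 7.81%), while the ribosomal protein genes themselves stayed within the small ranges given above.

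The rule left out 137 symbols of ribosomal protein copies, numbered or ending in -ps, that may share probe sequence with the members. They had medians of -0.08, 0.01 and 0.09 at 70 min, 4 h and 8 h. At 70 min 4 were called higher and 8 lower (background 6.76% and 7.81%), and at 8 h against 70 min 32 were higher and 2 lower (background 9.56% and 6.43%). Where a copy and its parent are near identical, the arrays cannot tell their transcripts apart.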

How the data were processed

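Amplified, biotin-labelled RNA was hybridised to single-colour arrays, per the labels' protocols. The submitters' processing notes name RMA and Affymetrix Expression Console 1.3.1.187, and the deposited table holds 36685 probes by 12 arrays. No unit is stated; the deposited values, 1.19 to 13.63, were taken as log2. RMA quantile-normalizes arrays, so changes in total RNA are removed. Probes with 1 symbol in the platform annotation (18511) were used, the brightest per gene. A linear model on group over all 12 arrays was fitted with limma 3.58.1 in R 4.3.3 (eBayes with trend, 8 residual degrees of freedom), two-sided, with Benjamini-Hochberg adjustment over 18166 genes in each comparison. Precision is limited by 3 arrays a group. The calculation was tested on simulated data. Members, gene lists and tests were chosen with earlier results of these data known. Named were members called against control, otherwise the 3 smallest unadjusted p in each direction, plus stalk, Rpsa, Rpl5, Rpl11, Rps6, relatives of members and extreme signals; others, such as Rps3a, Rps27 and the members called at 8 h against 70 min, were chosen after their values were seen. Promoter windows are RefSeq's. Alternatives were a replicate block, no trend in eBayes, weights for arrays, further quantile normalization, centring, the array median as a covariate, brighter genes, mean of probes, the compared groups alone and arrays left out.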

Additional observations from a re-analysis of the deposited data

Results flagged for a closer look

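Some ribosomal protein genes differed between SIN-1 times by limma's test of the difference itself, all of them higher at the later time. Between 4 h and 8 h this held for Rpl41, at 0.164 on the log2 scale (limma adjusted p = 0.0374). It was 1 of 57 members, near the background of 1.97% higher. Rpl41 was not called with the mean of its probes, and its further probe had 0.19 at 4 h and 0.14 at 8 h against control. Between 70 min and 8 h, a comparison added after the data had been seen, 14 genes were called higher (background 9.56%). The largest log2 differences were 0.714 for Rpl27a, 0.554 for Rps3a, 0.322 for Rpl10, 0.296 for Rpl41 and 0.263 for Rpl3. The others were 0.205 for Rpl10a, 0.203 for Rpl14, 0.199 for Rps19, 0.198 for Rpl39, 0.195 for Rpl23a, 0.192 for Rpl29, 0.152 for Rpl13a, 0.150 for Rps21 and 0.129 for Rps20. Adjusted p-values of the 14 ran from 9.46e-05 for Rpl41 to 0.0398 for Rpl39. Without 70 min replicate 3, or without 8 h replicate 2, the genes called were Rpl3, Rpl23a and Rpl41. With the array median as a covariate they were Rpl3 and Rpl41. Rpl10 was not called with the mean of its probes, and its dimmer probe had -0.30 at 70 min and -0.45 at 8 h against control.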

How the results depend on the processing

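No alternative turned the sign of a called result. At 70 min the count of members lower, 1 as reported, was 2 with the replicate block and with further quantile normalization (which also called 1 higher), 3 with brighter genes only and with the compared groups alone, and 7 with array weights. It was 0 with no trend in eBayes, without the 3 arrays of highest median and in the letter-for-letter membership, and 0 to 7 over arrays left out. The median of -0.068 was -0.122 with arrays centred on their median, -0.023 with each array's median in the fit, -0.003 without the 3 arrays of highest median, -0.039 with further quantile normalization and -0.085 to -0.028 over arrays left out. At 4 h the median of 0.014, with no call, ran from -0.017 (without 4 h replicate 1) to 0.028 over arrays left out, and at 8 h that of 0.050 ran from 0.031 to 0.070. At 4 h 1 was higher with brighter genes only (0 to 1 over arrays left out), and at 8 h 1 with array weights. At 4 h against 70 min 1 was higher with the replicate block, with further quantile normalization and with the mean of a gene's probes, 3 with array weights and with brighter genes only, and 0 to 4 over arrays left out; the median was 0.121 with centring. At 8 h against 4 h the count was 0 without the trend, with centring, with the mean of probes, with the compared groups alone, without the 3 arrays of highest median and in the letter-for-letter membership, and 0 to 1 over arrays left out. At 8 h against 70 min the count higher was 21 with array weights, 17 with brighter genes only, 16 with the replicate block, 12 with further quantile normalization, 3 without the trend, 2 with the covariate, 9 with the compared groups alone, 1 without the 3 arrays of highest median, 8 of the 30 in the letter-for-letter membership and 3 to 20 over arrays left out. The count lower was 1 with array weights and with brighter genes only, 2 with further quantile normalization and 0 to 1 over arrays left out. The median was 0.187 with centring, 0.053 with the covariate, 0.053 without the 3 arrays of highest median and 0.057 to 0.129 over arrays left out. The cause of these shifts was not tested. Whether replicate numbers pair the arrays could not be settled from the values. Of 18 same-numbered pairs 5 correlated over 0.1 in their deviations (-0.322 to 0.24), and 6 of 12 arrays correlated best with their own number. The comparison of 8 h with 70 min, the letter-for-letter membership and the alternatives run on the other gene lists were chosen after seeing the data.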
